A study of Mus musculus with 6 samples.

Results

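The miR-99, miR-100 and miR-125 families of microRNAs (miRNAs) were followed in inflamed mouse pancreas, where 10 mature arms were chosen by name: both arms of miR-99a, miR-99b and miR-125a, the 5p arm of miR-100, the 5p arm of miR-125b and the 3p arm of each of the 2 miR-125b hairpins. All 10 were found among the 1077 mature miRNAs of the count table, and all 10 passed the filter on low counts that left 488 miRNAs for testing. Small RNA was sequenced from pancreas of mice with pancreatitis and a raised blood triglyceride level, in 3 libraries titled HTG_AP and called HTG below, and from pancreas of control mice with pancreatitis without it, in 3 libraries titled CON_AP and called control. Pancreatitis was thus shared by both groups, and no healthy pancreas was compared. The sources used here give neither strain, age and sex nor the way pancreatitis and the raised triglycerides were brought about. Nor do they tie each library to an animal of its own, so p-values reflect only the variation from library to library, some of which could be technical.

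A miRNA guides an Argonaute protein to messenger RNAs that pair with its seed, the bases at positions 2 to 8, and thereby represses them. The miR-125 family is the vertebrate counterpart of lin-4, the founding miRNA of Caenorhabditis elegans, and miR-99 and miR-100 belong to another old family, known in human cells for repressing the kinase MTOR. The families share their genomic clusters with let-7 miRNAs, so that 1 primary transcript can carry a miR-99 or miR-100, a let-7 and a miR-125 hairpin. In adult tissues miR-99a, miR-100 and miR-125b are abundant in fibroblasts and other mesenchymal cells.

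The mature 5p arms fall into 2 seed groups, and the values below are presented in the order of these groups. Their sequences from RefSeq (GRCm38.p6) are shown 5′ to 3′ with the seed in capitals. The seed relative miR-351-5p and the 3p arms that tell the 2 miR-125b hairpins apart are shown with them.
mmu-miR-99a-5p: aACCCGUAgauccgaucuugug
mmu-miR-99b-5p: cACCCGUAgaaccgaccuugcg
mmu-miR-100-5p: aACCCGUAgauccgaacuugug
mmu-miR-125a-5p: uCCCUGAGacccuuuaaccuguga
mmu-miR-125b-5p: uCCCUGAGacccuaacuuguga
mmu-miR-351-5p: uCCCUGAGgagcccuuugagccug
mmu-miR-125b-1-3p: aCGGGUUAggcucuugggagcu
mmu-miR-125b-2-3p: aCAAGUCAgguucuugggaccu
Counted from 1 at the 5′ end, miR-100-5p differs from miR-99a-5p by 1 substitution, U16A, and miR-99b-5p differs from it by 4, A1C, U11A, U16C and U21C. The first 13 bases of miR-125b-5p and miR-125a-5p are the same, and the first 8 of miR-125b-5p and miR-351-5p. Of the 901 miRNAs of the table with a RefSeq sequence, miR-351-5p alone shared a seed with a member without being one. No member had counts identical in all 6 libraries to those of another miRNA. How reads with a mismatch were counted is not stated in the labels, so an exchange of reads between miR-99a-5p and miR-100-5p cannot be told apart from their true counts.

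By the GENCODE M21 annotation of GRCm38, the members come from 3 clusters, all on the + strand. The cluster of chromosome 16 spans 47.4 kb within introns of the noncoding gene Mir99ahg, with Mir99a (77598936 to 77599000), Mirlet7c-1 (77599657 to 77599750) and Mir125b-2 (77646273 to 77646343). That of chromosome 17 spans 0.692 kb within the protein-coding gene Spaca6: Mir99b (17830188 to 17830257) and Mirlet7e (17830352 to 17830444) are intronic, and Mir125a (17830812 to 17830879) overlaps an annotated exon. The cluster of chromosome 9 spans 50.6 kb within introns of the noncoding genes 3110039I08Rik and Gm49317, with Mir100 (41531425 to 41531504), Mirlet7a-2 (41536716 to 41536811) and Mir125b-1 (41581926 to 41582002), the last also overlapping an exon of Gm28119. The mature miR-125b-5p is made from both Mir125b-1 and Mir125b-2, and its counts cannot be divided between them.

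The libraries held 6514498 to 19773579 counts, and 3 counts, taken as the limit that a count of 0 allows, correspond to 0.152 to 0.461 CPM, taken here as reads relative to the library's total alone. All levels given below are CPM divided in addition by the library's trimmed-mean (TMM) factor, which was 0.883 to 1.19. The lowest count of any member was 12, so each member was measured above that limit in each library; that limit covers counting error alone, because PCR copies of 1 molecule are counted as several reads. The library numbered 1 of each group stood apart in lymphocyte miRNAs. The summed level of 5 leukocyte markers (miR-142a-3p, miR-142a-5p, miR-150-5p, miR-223-3p and miR-155-5p) was 6096, 1140 and 1357 CPM in HTG 1, 2 and 3, and 3372, 4524 and 2268 CPM in control 1, 2 and 3, the high control 2 being led by miR-223-3p. Of these, miR-150-5p was at 1726, 46.7 and 46.2 CPM in the HTG libraries and at 797, 66.2 and 103 CPM in the control libraries. The acinar cells that make digestive enzymes were marked by 4 miRNAs (miR-148a-3p, miR-216a-5p, miR-216b-5p and miR-217-5p), which summed to 317942 to 527770 CPM in HTG and 318992 to 437322 CPM in control libraries, and each was present in each library, as the tissue label says. Log2 fold changes without both libraries numbered 1 are therefore given beside those of the members.

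Together the 10 members held 0.886% ± 0.0936 of all counts in HTG and 1.08% ± 0.0598 in control libraries (SD, n = 3 each). The miR-99 and miR-100 arms made up 0.586% ± 0.0585 of the HTG and 0.655% ± 0.0414 of the control counts, and the miR-125 arms 0.300% ± 0.0475 of the HTG and 0.429% ± 0.0608 of the control counts. CPM has no length term, the members are 21 to 24 bases long, and ligation differs between sequences, so the order of levels is that of the libraries' reads.

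The most abundant member was miR-99a-5p (mmu-miR-99a-5p, the prefix for mouse being left out below), at 4567 ± 523 CPM in HTG and 4779 ± 88.3 CPM in control libraries (SD, n = 3 each), rank 29 of the whole table. It was followed by miR-125b-5p (rank 47), miR-125a-5p (rank 55), miR-99b-5p (rank 65) and miR-100-5p (rank 82). The 3p arms, which are mostly degraded once the 5p arm is loaded into Argonaute, reached at most 52.3 CPM in a library, in the order miR-125b-2-3p, miR-99b-3p, miR-125a-3p, miR-125b-1-3p and miR-99a-3p. In both groups the libraries' ranges of neighbours in this order of 10 did not overlap, except for miR-99b-3p and miR-125a-3p in HTG, at 17.4 to 24.9 CPM and 12.6 to 20.4 CPM.

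**Figure D1:**
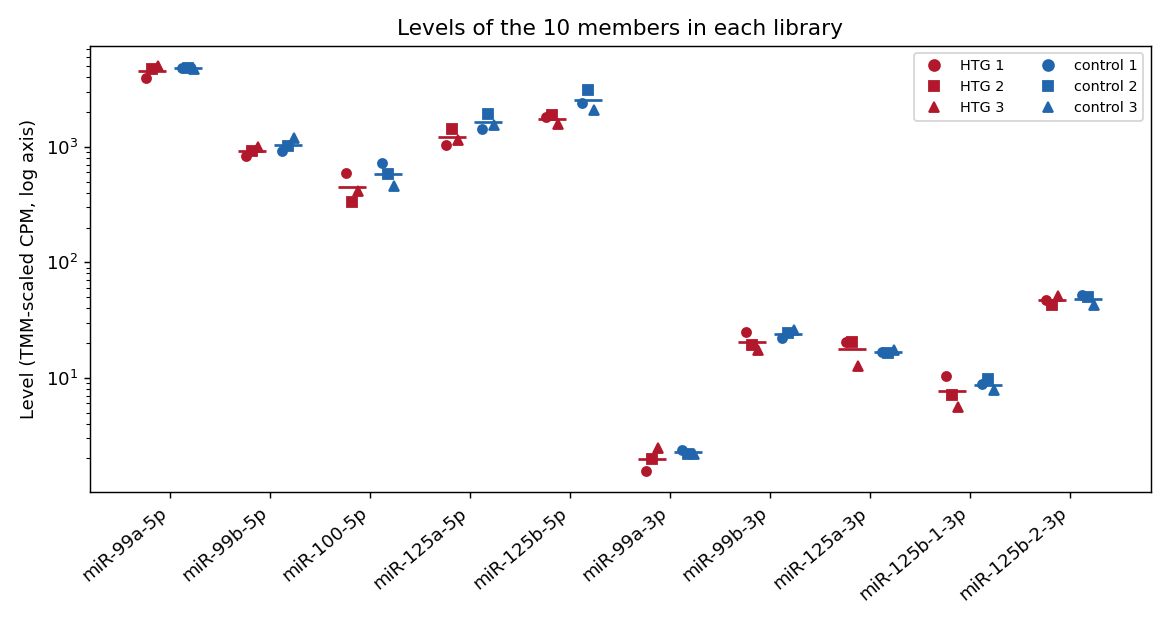
Levels of the 10 members in TMM-scaled CPM on a log axis, with 1 point per library (circle, square and triangle for libraries 1, 2 and 3) and a bar at the group mean; HTG is red and control blue. The 5p arms lie between 333 and 4994 CPM and the 3p arms between 1.55 and 52.3 CPM, and miR-125b-5p is the member whose red points all lie below its blue points.

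No member differed between HTG and control pancreatitis past the threshold. Of the 10 members, edgeR's quasi-likelihood test called 0 at an adjusted p of 0.05, as it called 0 of all 488 tested miRNAs (0%), and the smallest adjusted p was 0.996 in both. At an unadjusted p under 0.05 there was 1 member, miR-125b-5p on the lower side, against 12 of the 488 miRNAs in either direction (2.46%) and 5 on the lower side (1.02%). DESeq2 called 0 members and 0 miRNAs as well, with 1 member and 19 miRNAs at an unadjusted p under 0.05. With the replicate number of the titles as a block, the number of adjusted calls was 0, and the unadjusted numbers were 2 members and 27 miRNAs. Fitted log2 fold changes (HTG over control) were below 0 for 9 of the 10 members, where they were below 0 for 249 of the 488 miRNAs (51.0%). Their median was -0.18, against -0.0076 for all tested miRNAs; the 5 5p arms had a median of -0.40 and the 5 3p arms of -0.17. The number of members below 0 was 6 without both libraries numbered 1, where 46.8% of all tested miRNAs were below 0.

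The lowest log2 fold changes among the 10 members in the fit of all 6 libraries were those of the miR-125 5p arms. Under the 12 alternatives miR-125b-5p was the lowest member in 10 and both arms were the lowest pair in 8; without HTG 1 and without control 2 the lowest was miR-100-5p. In the 3 HTG libraries miR-125b-5p, a miRNA known for repressing Lin28a and, in human cells, p53, stood at 1798, 1893 and 1583 CPM, and in the 3 control libraries at 2393, 3133 and 2076 CPM. The groups did not overlap, the control 2 library standing highest; such a separation on the lower side was seen for 1 of the 10 members and for 18 of the 488 miRNAs (3.69%). The means were 1758 ± 159 CPM in HTG and 2534 ± 542 CPM in control libraries (SD, n = 3 each). The log2 fold change was -0.53 ± 0.19 (SE; 95% interval -0.97 to -0.09), or 0.694-fold, with an unadjusted p of 0.0251 and an adjusted p of 0.996 in edgeR. It was -0.35 without control 2 and -0.50 without both libraries numbered 1 (adjusted p = 0.365 in edgeR). Between same-numbered libraries the log2 difference was -0.41, -0.73 and -0.39 for numbers 1, 2 and 3, below 0 in 3 of 3 pairs, and with the replicate block the log2 fold change was -0.51 ± 0.15 (SE; adjusted p = 0.559 in edgeR).

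Its relative miR-125a-5p, which shares its seed and thus many predicted targets, had the same order of groups with overlap. It stood at 1046, 1436 and 1137 CPM in the HTG libraries and at 1431, 1910 and 1540 CPM in the control libraries. The highest HTG library, number 2, lay just above the lowest control library, number 1, and the highest control was again number 2. The log2 fold change was -0.43 ± 0.19 (SE; 95% interval -0.87 to 0.01; adjusted p = 0.996 in edgeR), and -0.30 without control 2 or without HTG 1, -0.34 without both libraries numbered 1. Between same-numbered libraries, however, HTG was lower in 3 of 3 pairs and by a like amount, with log2 differences of -0.45, -0.41 and -0.44. With the replicate block the log2 fold change was -0.43 ± 0.14 (SE), the unadjusted p 0.0151 against 0.0539 without the block, and the adjusted p 0.559 in edgeR. HTG was lower in 3 of 3 pairs for miR-99b-5p (-0.14, -0.12 and -0.25) and miR-100-5p (-0.30, -0.81 and -0.14) as well. It was lower in 2 of 3 pairs for miR-99a-5p and in 1 or 2 for each 3p arm. The share of all tested miRNAs lower in 3 of 3 pairs was not computed, and the pairs rest on the numbers of the titles alone.

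The rodent miRNA miR-351-5p, from an X-linked hairpin (Mir351, 53053255 to 53053353 on the - strand) outside these clusters, is no member but carries the same seed. It was far rarer, at 25.9, 21.1 and 22.5 CPM in HTG and 33.7, 27.4 and 32.1 CPM in control libraries, and the groups did not overlap. Its log2 fold change was -0.43 ± 0.19 (SE; 95% interval -0.86 to 0.01; adjusted p = 0.996 in edgeR). Among the 488 miRNAs the unadjusted p ranked 8 for miR-125b-5p, 13 for miR-125a-5p and 15 for miR-351-5p. These unadjusted p were 0.0251, 0.0539 and 0.0545 in edgeR, and the adjusted p was 0.996 for each. Only 12 of the 488 miRNAs (2.46%) had an unadjusted p under 0.05, so the ranks single out none of the 3. The level summed over the 3 miRNAs with the CCCUGAG seed was 2869, 3350 and 2743 CPM in the HTG libraries and 3858, 5070 and 3649 CPM in the control libraries, with no overlap. Most of this sum was miR-125b-5p itself, so its separation is no result apart from that of miR-125b-5p. On average miR-351-5p held 0.785% of the sum in HTG and 0.765% in control libraries. How often such sums separate among all miRNAs was not computed. The make-up of this pool differed between the groups by less than its SD: miR-125b-5p held 59.0% ± 3.26 of it in HTG and 60.2% ± 2.90 in control libraries, and miR-125a-5p 40.3% ± 3.38 in HTG and 39.0% ± 2.81 in control (SD, n = 3 each).

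Markers of other cell types are given beside these values. All 6 markers of stellate and smooth muscle cells, the fibre-forming and contractile cells of the pancreas, had fitted log2 fold changes below 0 (median -0.21, 0 called in edgeR), and they summed to 35838, 19295 and 21856 CPM in the HTG libraries and to 60409, 25868 and 16848 CPM in the control libraries. That sum, led by miR-143-3p, was highest in control 1, while miR-125b-5p was highest in control 2. The stellate cell miRNAs miR-199a-5p (-0.06 ± 0.14, SE) and miR-199a-3p (-0.09 ± 0.14) had log2 fold changes nearer to 0. Of the 5 leukocyte markers 4 had a log2 fold change above 0 and 1 below 0 (median 0.13, 0 called in edgeR), among them 0.91 for miR-150-5p and 0.40 for miR-142a-5p. The 1 below 0 was the myeloid miR-223-3p (-1.11). It stood at 993, 769 and 948 CPM in HTG and 663, 3510 and 1695 CPM in control libraries, and was highest in control 2 as well. The part of these cells in the values of the miR-125 group was not tested, and in such bulk tissue fewer cells of a type and less RNA per cell cannot be told apart. Endothelial markers (8648 to 8934 CPM in HTG, 8020 to 9652 CPM in control), islet markers (37255 to 49143 CPM in HTG, 36023 to 43259 CPM in control) and epithelial duct markers (28603 to 44519 CPM in HTG, 35010 to 38514 CPM in control) overlapped between the groups in their sums. So did those of striated muscle (193 to 249 CPM in HTG, 190 to 601 CPM in control), of erythroid cells (364 to 849 CPM in HTG, 293 to 723 CPM in control) and the liver miRNA miR-122-5p (1.11 to 6.58 CPM in HTG, 1.78 to 7.50 CPM in control). The islet sum was led by miR-375-3p, and the islet marker miR-7a-5p did not overlap between the groups. It stood at 4857, 5588 and 5284 CPM in HTG and 4373, 2348 and 2191 CPM in control libraries. Its log2 fold change was 0.82 ± 0.27 (SE; adjusted p = 0.996 in edgeR). The share of all tested miRNAs separated on this higher side was not computed. Log2 fold changes were below 0 for all 3 striated muscle markers (median -0.56) and for miR-122-5p (-0.80 ± 0.83, SE). They were above 0 for all 4 acinar markers (median 0.17) and all 3 erythroid markers (median 0.32). Islet and endothelial markers each had 1 below 0 and 2 above, and epithelial duct markers 1 below and 3 above. In each of these lists 0 were called in edgeR. No marker was at 0 in any library.

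**Figure D2:**
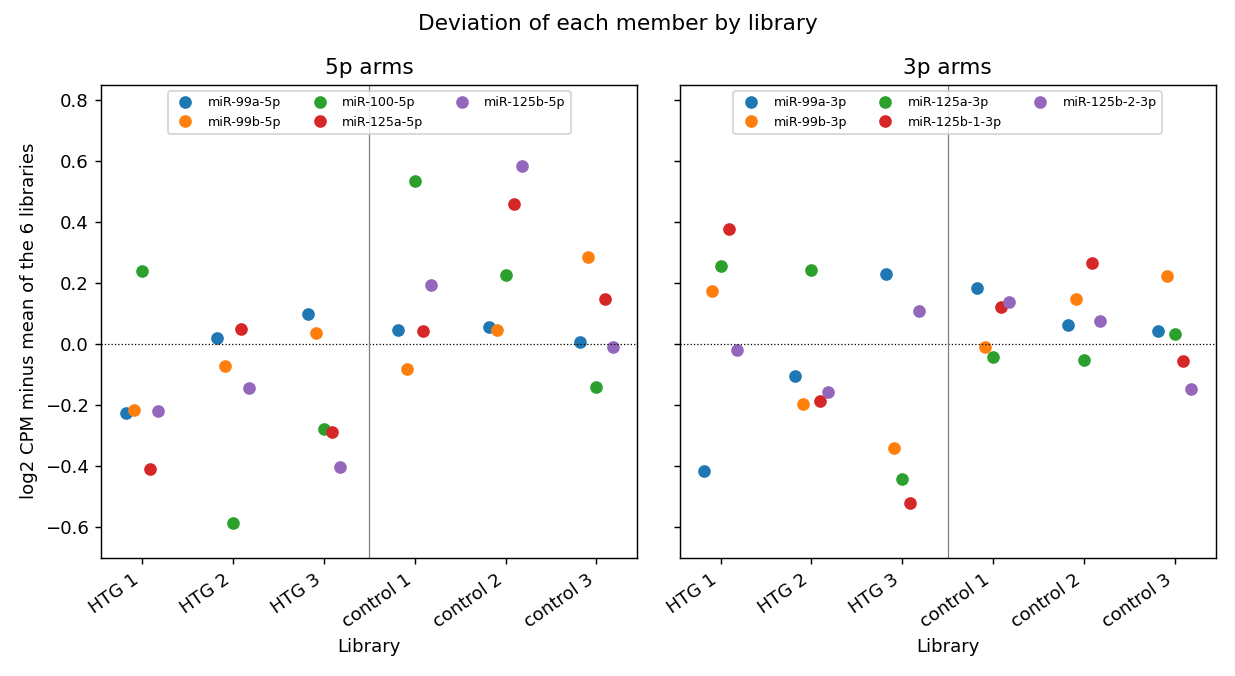
Deviation of each member from its mean over the 6 libraries, in log2 CPM, by library, for the 5p arms (left panel) and the 3p arms (right panel). The deviations of miR-125b-5p are -0.22, -0.14 and -0.40 in the HTG libraries and 0.19, 0.58 and -0.011 in the control libraries, while those of miR-99a-5p stay between -0.23 and 0.10.

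In the miR-99 and miR-100 seed group, miR-99a-5p stood at 3983, 4725 and 4994 CPM in the HTG libraries and at 4810, 4847 and 4679 CPM in the control libraries. The control libraries lay close together, and the low value of HTG 1 and the high value of HTG 3 fell on either side of them. The log2 fold change was -0.065 ± 0.14 (SE; 95% interval -0.39 to 0.26), so that a change to below 0.761-fold or above 1.20-fold lay outside the interval of this fit. Without both libraries numbered 1 the log2 fold change was 0.12, with a 95% interval of -0.18 to 0.43 that reached higher. Its paralog miR-99b-5p was at 841, 929 and 1002 CPM in HTG and 924, 1009 and 1191 CPM in control libraries, with overlap, and a log2 fold change of -0.17 ± 0.16 (SE). That value was -0.074 without HTG 1, -0.071 without control 3 and -0.094 without both libraries numbered 1.

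The single member of chromosome 9 with a seed of this group, miR-100-5p, had the widest spread relative to its mean of the 5p arms in both groups, with an SD of 131 CPM around a mean of 445 CPM in HTG and of 135 CPM around 587 CPM in control libraries. It stood at 590, 333 and 412 CPM in the HTG libraries and at 724, 585 and 454 CPM in the control libraries. In both groups the library numbered 1 was the highest, and HTG 1 lay above controls 2 and 3. The log2 fold change was -0.40 ± 0.27 (SE; 95% interval -1.02 to 0.22; adjusted p = 0.996 in edgeR), -0.63 without HTG 1, -0.17 without control 1 and -0.39 without both. Although it differs from miR-99a-5p by a single base, the order of its libraries was another one: miR-99a-5p was lowest and miR-100-5p highest of the group in HTG 1. The summed level of the 3 miRNAs with the ACCCGUA seed was 5414, 5986 and 6408 CPM in HTG and 6458, 6441 and 6324 CPM in control libraries, with overlap. Of this pool miR-99a-5p held 76.8% ± 2.84 in HTG and 74.6% ± 0.636 in control, and miR-100-5p 7.63% ± 2.86 in HTG and 9.15% ± 2.02 in control (SD, n = 3 each).

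The miR-10 miRNAs of the Hox clusters have a sequence close to that of this group but another seed, ACCCUGU. Their log2 fold changes were -0.30 ± 0.17 for miR-10a-5p and -0.10 ± 0.21 for miR-10b-5p (SE; adjusted p = 0.996 in edgeR for each).

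The 3p arms overlapped between the groups throughout. For miR-125a-3p the levels were 20.4, 20.3 and 12.6 CPM in HTG and 16.6, 16.5 and 17.5 CPM in control libraries, and its log2 fold change of 0.073 ± 0.25 (SE) was the single one above 0 among the members; it was 0.047 without both libraries numbered 1. The level of miR-99b-3p was 24.9, 19.3 and 17.4 CPM in HTG and 21.9, 24.4 and 25.8 CPM in control libraries (-0.23 ± 0.21). Its log2 fold change was -0.36 without both libraries numbered 1 and -0.13 without HTG 3. The rarest member, miR-99a-3p, was counted 12, 32 and 23 times in HTG and 21, 19 and 48 times in control libraries, at 1.55 to 2.47 CPM in HTG and 2.19 to 2.39 CPM in control (-0.17 ± 0.35). Without both libraries numbered 1 this value was above 0, at 0.10. The SD of miR-125a-3p was 4.48 CPM in HTG and 0.581 CPM in control libraries, and that of miR-99b-3p 3.90 CPM in HTG and 1.97 CPM in control libraries; whether these spreads differ was not tested.

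The 3p arms of miR-125b carry the source hairpin in their sequence. From Mir125b-2 on chromosome 16, miR-125b-2-3p stood at 46.9, 42.6 and 51.2 CPM in HTG and 52.3, 50.0 and 42.9 CPM in control libraries, a log2 fold change of -0.045 ± 0.16 (SE; 95% interval -0.43 to 0.34) that was 0.11 without both libraries numbered 1. From Mir125b-1 on chromosome 9, miR-125b-1-3p stood at 10.5, 7.09 and 5.59 CPM in HTG and 8.75, 9.69 and 7.77 CPM in control libraries (-0.18 ± 0.32). That value was -0.42 without HTG 1, -0.0035 without HTG 3 and -0.36 without both libraries numbered 1. Neither arm separated the groups as their shared 5p arm did, and whether the fold changes of the 5p and the 3p arms differ was not tested. Of the counts of both 3p arms, miR-125b-2-3p held 85.9% ± 4.20 in HTG and 84.7% ± 0.939 in control libraries (SD, n = 3 each). How the 2 hairpins share the 5p arm cannot be read from this, since each 3p arm is retained at its own rate.

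**Figure D3:**
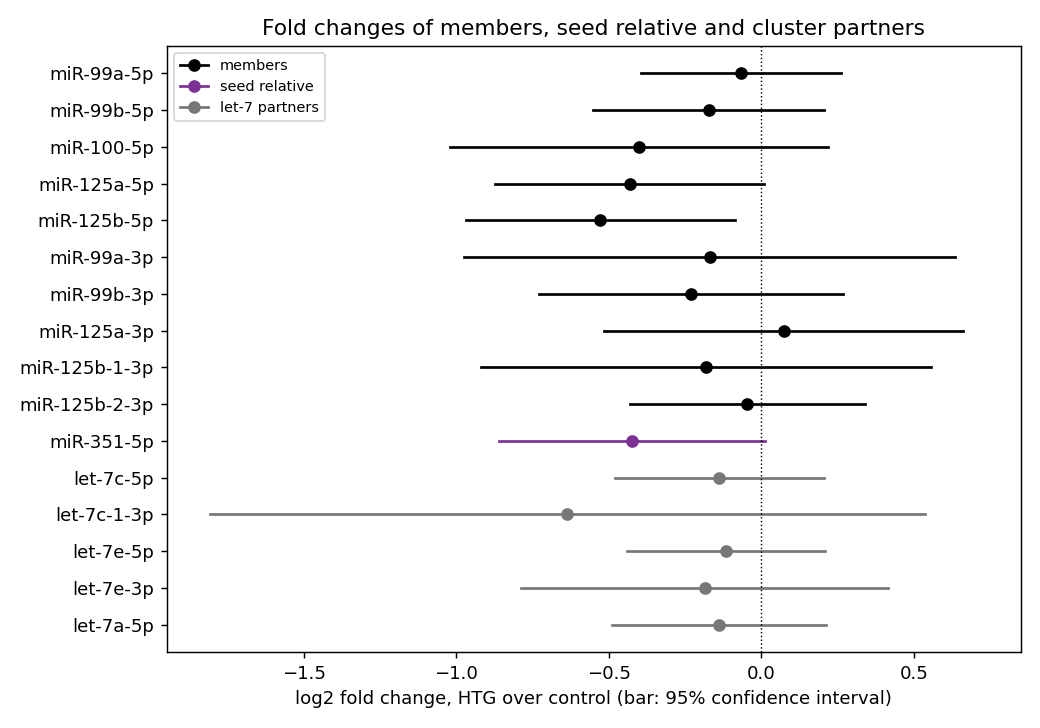
Log2 fold changes of HTG over control with 95% confidence intervals from edgeR, for the 10 members (black), the seed relative miR-351-5p (purple) and 5 let-7 arms of the same clusters (grey). The interval of miR-125b-5p, from -0.97 to -0.09, lies below 0, and all the other intervals drawn include 0. Each interval is for a single miRNA, unadjusted for the 488 tests, and the adjusted p of miR-125b-5p was 0.996 in edgeR.

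Ratios between 2 miRNAs of the same library need no scaling between libraries, and 11 of them were compared by an exact two-sided permutation test, whose smallest p is 0.1 with 3 against 3 libraries. None reached that value, and all 11 adjusted p were between 0.825 and 0.900. The counts of miR-125b-5p were 0.317 to 0.451 of those of miR-99a-5p in HTG and 0.444 to 0.646 of them in control libraries. The ranges overlapped through HTG 1 and control 3, and the difference in mean log2 ratio was -0.44 (exact permutation p = 0.2), or -0.29 without control 2. For miR-125a-5p over miR-99b-5p, which are cut from hairpins of a cluster 0.692 kb long, the ratio was 1.13 to 1.55 in HTG and 1.29 to 1.89 in control libraries, a log2 difference of -0.27 (exact permutation p = 0.2) that ran from -0.40 without control 3 to -0.13 without control 2.

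Between the seed relatives miR-125b-5p and miR-125a-5p, from different chromosomes, the ratio was 1.32 to 1.72 in HTG and 1.35 to 1.67 in control libraries (log2 difference -0.08, exact permutation p = 0.9). For miR-99a-5p over miR-99b-5p it was 4.74 to 5.09 in HTG and 3.93 to 5.21 in control libraries (log2 difference 0.10, exact permutation p = 0.7). The ratio of miR-100-5p to miR-99a-5p ran from 0.0705 to 0.148 in HTG and from 0.0970 to 0.151 in control libraries (log2 difference -0.34, exact permutation p = 0.4). This difference was -0.66 without HTG 1, -0.13 without HTG 2 and -0.50 without both libraries numbered 1.

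The arm ratios spanned a wide range between hairpins. Counts of the 5p arm exceeded those of the 3p arm by 1977 to 2468 times for miR-99a in HTG and 1969 to 2156 times in control libraries (exact permutation p = 0.3 for the log2 difference of 0.12). For miR-99b the 5p arm was 33.7 to 57.4 times the 3p arm in HTG and 41.2 to 46.1 times in control libraries (log2 difference 0.07, exact permutation p = 0.8). For miR-125a it was 51.1 to 90.0 times in HTG and 85.9 to 115 times in control libraries, where HTG 1 was lowest and control 2 highest (log2 difference -0.47, exact permutation p = 0.3; -0.26 without HTG 1 and -0.67 without HTG 3). The ratio of miR-125b-1-3p to miR-125b-2-3p had a log2 difference of -0.18 (exact permutation p = 0.7).

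**Figure D4:**
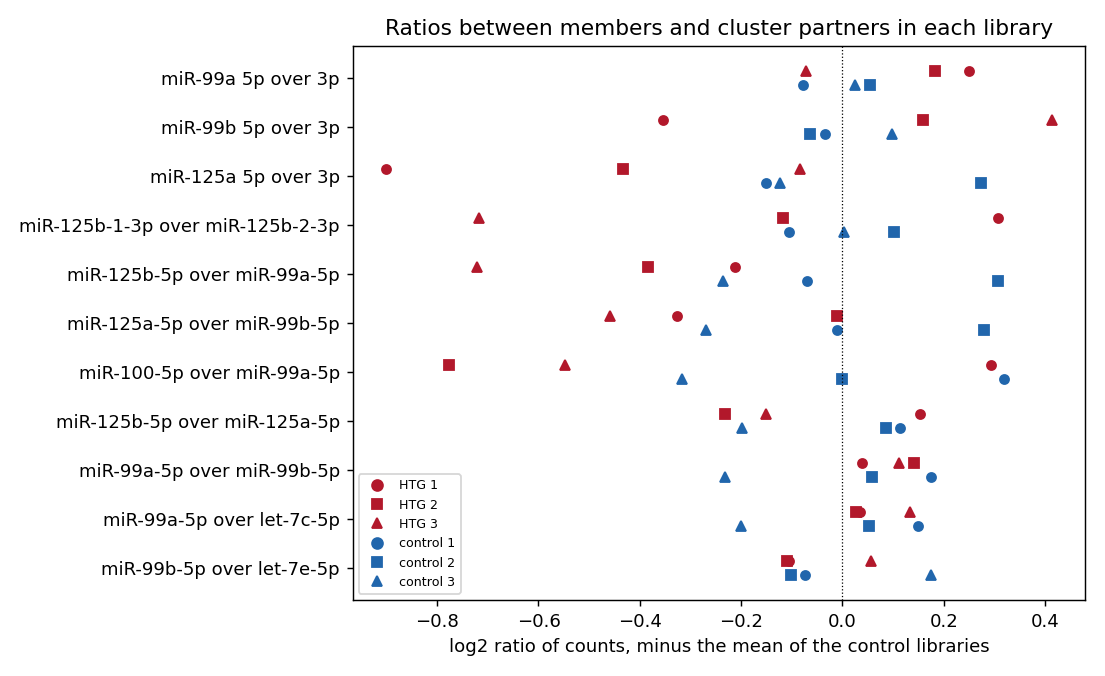
Log2 ratio of the counts of 2 miRNAs in each library, minus the mean of the control libraries, for 11 ratios; HTG is red and control blue, with circle, square and triangle for libraries 1, 2 and 3. Red and blue points overlap in all 11 rows, and the ratio of miR-125b-5p to miR-99a-5p has a group difference of -0.44.

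None of the let-7 partners of the clusters, a family that promotes differentiation and represses Lin28a, was called in edgeR (smallest adjusted p over all 488 miRNAs 0.996). Of 6 let-7 arms of the 3 clusters 5 were tested, and all 5 had a log2 fold change below 0 (background 51.0%). The list of partners also held let-7a-1-3p, from outside the clusters, and with it 5 of 6 tested arms were below 0. On chromosome 17 let-7e-5p stood at 959, 1063 and 1022 CPM in HTG and 1032, 1149 and 1120 CPM in control libraries, a log2 fold change of -0.12 ± 0.14 (SE), and let-7e-3p at -0.19 ± 0.26. The ratio of miR-99b-5p to let-7e-5p was 0.873 to 0.980 in HTG and 0.878 to 1.06 in control libraries (exact permutation p = 0.5). The mature let-7c-5p, made from Mirlet7c-1 of chromosome 16 and from a second hairpin on chromosome 15, had a log2 fold change of -0.14 ± 0.15, and the ratio of miR-99a-5p to let-7c-5p was 0.434 to 0.468 in HTG and 0.371 to 0.473 in control libraries (exact permutation p = 0.9). The 3p arm let-7c-1-3p was counted 4, 24 and 12 times in HTG and 12, 22 and 31 times in control libraries (-0.64 ± 0.50). On chromosome 9, let-7a-2-3p had 0 to 3 counts in each group and was not tested. The level of let-7a-5p, which other hairpins also give, had a log2 fold change of -0.14 ± 0.15, and let-7a-1-3p of 0.02 ± 0.25. The arm let-7a-1-3p lies outside the 3 clusters, on chromosome 13, and its counts were identical in all 6 libraries to those of let-7c-2-3p, so they cannot be assigned to 1 hairpin.

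The miRNAs with the most similar course over the 6 libraries were sought among the 478 other tested miRNAs, by Pearson's r of log2 CPM. All points share the libraries and their scaling, so r is given as a description. Nearest to miR-125a-5p were miR-744-3p (r = 0.979), let-7e-5p (0.933) and let-7e-3p (0.919), of which the let-7e arms come from the same cluster of chromosome 17. Nearest to miR-125b-5p were miR-187-3p (r = 0.922), miR-380-5p (0.914) and miR-130b-5p (0.909). For miR-99a-5p they were miR-190a-5p (r = 0.960), miR-34a-5p (0.920) and miR-30a-5p (0.916), and for miR-99b-5p miR-362-5p (0.959), miR-30d-5p (0.956) and let-7c-5p (0.952). For miR-100-5p they were miR-9-5p (r = 0.983), the liver miRNA miR-122-5p (0.950) and miR-671-3p (0.935). Members were left out of this search, so of the cluster of chromosome 16 only let-7c-5p and let-7c-1-3p could appear. Neither was among the nearest 3 of miR-99a-5p.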

How the data were processed

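Trizol extraction and library preparation (NEXTflex Small RNA-Seq Kit v3) are stated per the labels' protocols. The submitters' processing notes list Bowtie 1.1.1 and GRCm38; trimming, annotation release and the handling of reads that match several miRNAs are not stated there. The authors deposited whole-number read counts per mature miRNA and library, per the file headers, and these counts were used without change; the normalized columns beside them were not used.

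All miRNAs were tested in 1 fit with edgeR 4.0.16 under R 4.3.3. The filter was filterByExpr (min.count 10, min.total.count 15), scaling was by TMM, and the two-sided quasi-likelihood p was adjusted by Benjamini-Hochberg over all tested miRNAs, with a threshold of 0.05. The fit was checked on simulated data. SE is the log2 fold change divided by the root of F. Ratios had 0.5 counts added to each count and were compared by exact permutation in scipy 1.17.1, adjusted over the 11 ratios. Alternatives were DESeq2 1.42.0, other scaling, no filter, a replicate block, and libraries left out. The deviations of same-numbered libraries from their group means correlated at 0.457, 0.185 and 0.254 for numbers 1, 2 and 3. Those of control 3 with HTG 2 (0.202) and of control 2 with HTG 3 (0.192) lay above the value of number 2. Only number 1 thus stood apart from libraries of other numbers, and pairing numbers 2 and 3 by title is an assumption. The labels do not say what a number stands for. The miRNAs named are the members, their let-7 cluster partners, seed relatives, cell type markers and the 3 nearest in pattern of each member of at least 100 CPM. Members, lists and tests were chosen with earlier results of these data known.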

Additional observations from a re-analysis of the deposited data

How the results depend on the processing

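Over the 12 alternatives edgeR or DESeq2 called 0 members, and the smallest adjusted p of a member was 0.365 (miR-125b-5p, without both libraries numbered 1). The sign of 6 members held in all 12, and that of 4 turned in at least 1, so that 6 to 10 members had a log2 fold change below 0. The share of all tested miRNAs below 0 ran from 41.4% without control 1 to 60.5% with library size only. Over all miRNAs the number of calls was 1 with no filter (miR-135b-5p), 0 to 2 when 1 library was left out (miR-129-5p and miR-7b-5p, without control 1) and 4 without both libraries numbered 1 (miR-129-5p, miR-335-3p, miR-7a-5p and miR-7b-5p); these were named after their values were seen, and the cause was not tested. With the replicate block the number of calls was 0 for members and for all miRNAs, with a smallest adjusted p of 0.559, and it changed no call.

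Without both libraries numbered 1, log2 fold changes turned to 0.12 for miR-99a-5p, 0.10 for miR-99a-3p and 0.11 for miR-125b-2-3p. That of let-7a-1-3p turned to -0.079 with library size only and to -0.031 with the replicate block. Leaving out 1 library at a time gave ranges that include 0 for miR-99a-5p (-0.14 to 0.058), miR-99a-3p (-0.35 to 0.0061), miR-125a-3p (-0.078 to 0.26), miR-125b-2-3p (-0.13 to 0.077), let-7a-5p (-0.22 to 0.0020), let-7a-1-3p (-0.13 to 0.29) and miR-10b-5p (-0.27 to 0.076). So did the log2 differences of the ratios miR-99b 5p over 3p (-0.10 to 0.29), miR-125b-1-3p over miR-125b-2-3p (-0.42 to 0.10), miR-125b-5p over miR-125a-5p (-0.19 to 0.00026), miR-99a-5p over miR-99b-5p (-0.019 to 0.18), miR-99a-5p over let-7c-5p (-0.035 to 0.14) and miR-99b-5p over let-7e-5p (-0.11 to 0.035). Without both libraries numbered 1 the log2 difference was -0.47 for miR-125b-1-3p over miR-125b-2-3p, 0.27 for miR-99b 5p over 3p, 0.21 for miR-99a-5p over miR-99b-5p and 0.15 for miR-99a-5p over let-7c-5p. For miR-125b-5p the range was -0.66 (without control 3) to -0.35 (without control 2), and its unadjusted p was under 0.05 in 8 of the 12 alternatives. Among the 10 members miR-99a-3p had the lowest counts, 12 to 48 in a library.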
